A study of Mus musculus with 28 samples.

Results

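Imprinted genes are expressed mainly from the allele inherited from 1 parent. The 10 genes described here were chosen by name for that property: the non-coding RNAs *H19*, *Meg3*, *Rian*, and *Mirg*, and the protein-coding genes *Igf2*, *Cdkn1c*, *Grb10*, *Peg3*, *Peg10*, and *Snrpn*. The RNA-seq table held values for 15384 genes, 9 of the 10 included, and all 10 were among the 27179 genes counted in chromatin RNA. *Snrpn* had no RNA-seq value in the table used here. The alleles were not separated in any of the data, so each value is the sum over both parental copies.

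The cells were mouse embryonic stem cells (mESCs) of the E14 line, grown on gelatin with serum and leukaemia inhibitory factor. They were transfected with lentiviral vectors that carried either a scrambled shRNA (control) or shRNAs 1 and 2 against *Ssrp1* in combination (KD), and were selected with 2 µg/ml puromycin for 24 h, starting 48 h after transfection. SSRP1 and SUPT16 are the subunits of FACT, a histone chaperone that opens and rebuilds nucleosomes during transcription. Control and KD were each measured in 4 libraries of ribosome-depleted total RNA with ERCC spike-ins, and E14 cells with no treatment named gave 2 libraries of chromatin-bound RNA and 1 peak list for each FACT subunit. All groups are 1 cell line, and KD and control cells carried a vector and went through the same selection.

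At an imprinted domain, a control region that is methylated on only 1 parental chromosome sets which allele of the neighbouring genes is transcribed. In the *H19*/*Igf2* domain the insulator protein CTCF keeps enhancers away from *Igf2* on the maternal chromosome, whereas in the *Dlk1*-*Dio3* domain a germline control region upstream of *Meg3* keeps the maternal non-coding RNAs on. In mESCs these marks are maintained by the zinc finger protein ZFP57 with its partner TRIM28 and by DNMT1, and the maternal *Meg3*-*Rian*-*Mirg* transcription is known to be lost in some mouse pluripotent lines.

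RNA-seq values are reads per gene divided by an effective library size (counts per 1e+06 reads, CPM). The libraries held 4602278 to 6680919 reads in control and 9433193 to 19856032 in KD, so control values carried more counting error. *Ssrp1* itself lay between 222.6 and 260.7 in the control libraries and between 24.1 and 28.9 in the KD libraries, which matched the labels. Changes were tested with limma over all 15384 genes and called at an absolute log2 fold change above 1 with a Benjamini-Hochberg adjusted p below 0.01. A gene could pass that adjusted p with a smaller change and was then not called. Scaling to the spike-ins in place of library size moved the median log2 fold change of all genes from -0.03 to 0.95, so every change below is a change relative to the other RNAs of the cell unless the spike-in value is given. With the spike-ins the KD libraries of each of the 9 genes stood further apart. Those of *H19* spanned 209.2 to 414.6, against 223.8 to 235.6 with library size. The part of this spread in calls lost on the spike-in scale was not tested.

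The start-site windows of the non-coding RNAs of the *Dlk1*-*Dio3* domain are shown first because these neighbours, transcribed in 1 direction along the maternal chromosome, differed in their response. Each window runs from 250 bases before to 50 bases after a RefSeq start site on the plus strand (GRCm38.p6), and capitals mark CpG dinucleotides, the sites of DNA methylation. The *Meg3* window (chr12:109540746-109541045), the first of 2 in the table, holds 13 CpGs, the *Rian* window (chr12:109603695-109603994) holds 0, and the *Mirg* window (chr12:109734731-109735030) holds 10, against a median of 7 in 32851 such windows of the table.
Meg3: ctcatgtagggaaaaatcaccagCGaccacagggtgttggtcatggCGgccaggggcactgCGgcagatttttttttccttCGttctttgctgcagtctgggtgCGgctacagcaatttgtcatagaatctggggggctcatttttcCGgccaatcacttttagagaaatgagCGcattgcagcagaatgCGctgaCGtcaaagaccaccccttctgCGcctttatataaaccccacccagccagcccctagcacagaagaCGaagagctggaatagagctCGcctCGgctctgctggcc
Rian: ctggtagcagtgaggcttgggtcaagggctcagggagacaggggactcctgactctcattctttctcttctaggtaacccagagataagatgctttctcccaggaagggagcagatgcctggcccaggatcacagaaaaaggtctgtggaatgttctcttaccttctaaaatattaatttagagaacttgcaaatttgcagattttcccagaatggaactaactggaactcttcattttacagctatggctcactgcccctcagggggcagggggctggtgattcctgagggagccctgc
Mirg: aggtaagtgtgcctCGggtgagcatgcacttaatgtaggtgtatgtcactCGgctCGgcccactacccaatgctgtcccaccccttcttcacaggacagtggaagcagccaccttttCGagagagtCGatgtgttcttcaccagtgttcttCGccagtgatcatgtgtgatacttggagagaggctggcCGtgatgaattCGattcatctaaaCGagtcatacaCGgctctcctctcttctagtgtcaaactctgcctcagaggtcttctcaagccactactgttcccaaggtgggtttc
The *Rian* window was CpG-free, and 0% of windows held fewer. The *Meg3* and *Mirg* windows held more CpGs than 62.1% and 56.5% of all windows. The second *Meg3* window (chr12:109545148-109545447, not printed) held 1 CpG, and 5.43% of windows held fewer. A promoter window of *H19*, *Peg10*, or *Cdkn1c* was not analysed here.

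In control mESCs the members covered a wide range of levels, compared here per kb of exon. *Peg10*, a retrotransposon-derived gene needed for the placenta, was highest at 130.6 ± 21.7 CPM per kb (SD, n = 4 libraries), above 97.0% of all genes. *H19*, the precursor of miR-675, followed at 89.8 ± 10.7. Its range did not overlap that of *Peg10* above or of *Igf2* below. *Igf2* (25.4 ± 5.17), *Cdkn1c* (22.4 ± 4.71), *Peg3* (20.1 ± 3.45), and *Rian* (18.9 ± 1.26) formed a middle group in which the ranges of adjacent genes overlapped, although those of *Igf2* and *Rian* did not. *Grb10* (11.2 ± 0.775), *Mirg* (6.98 ± 1.81), and *Meg3* (2.74 ± 0.548) followed with ranges that did not overlap. *Meg3* was thus the lowest member, above 14.9% of all genes. Its exon model spans 12906 bases, against 3584 for *Rian* and 1300 for *Mirg*.

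On the library-size scale, *Meg3*, *Mirg*, and *Peg3* fell after *Ssrp1* KD and *Cdkn1c* rose, whereas *Rian*, *Peg10*, and *Igf2* passed the adjusted p with smaller decreases and *H19* and *Grb10* did not pass it. Of these 4 calls only that of *Cdkn1c* held under each scaling and correction tried, and the values that differ are given with each gene. Of the 9 members with a value, 1 was called higher (11.1%) and 3 were called lower (33.3%), against 8.07% and 20.6% of all genes tested (28.6% in both directions). At the adjusted p alone 1 member was higher and 6 were lower, against 35.4% and 37.3% of all genes. The libraries of the 2 groups did not overlap for 6 members, 1 of them higher and 5 lower in KD, a property that 73.3% of all genes shared (35.8% higher and 37.5% lower). The median log2 fold change of the members was -0.38, against -0.03 for all genes. Under the spike-in scaling the members' median was 0.64 against 0.95 for all genes, 7 of the 9 had a positive value, and limma called 1 higher and 0 lower (also 0 lower at an unadjusted p below 0.05), against 48.1% and 7.03% of all genes. In each of the 2 scalings 3 of the 9 lay above the median of all genes.

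**Figure D1:**
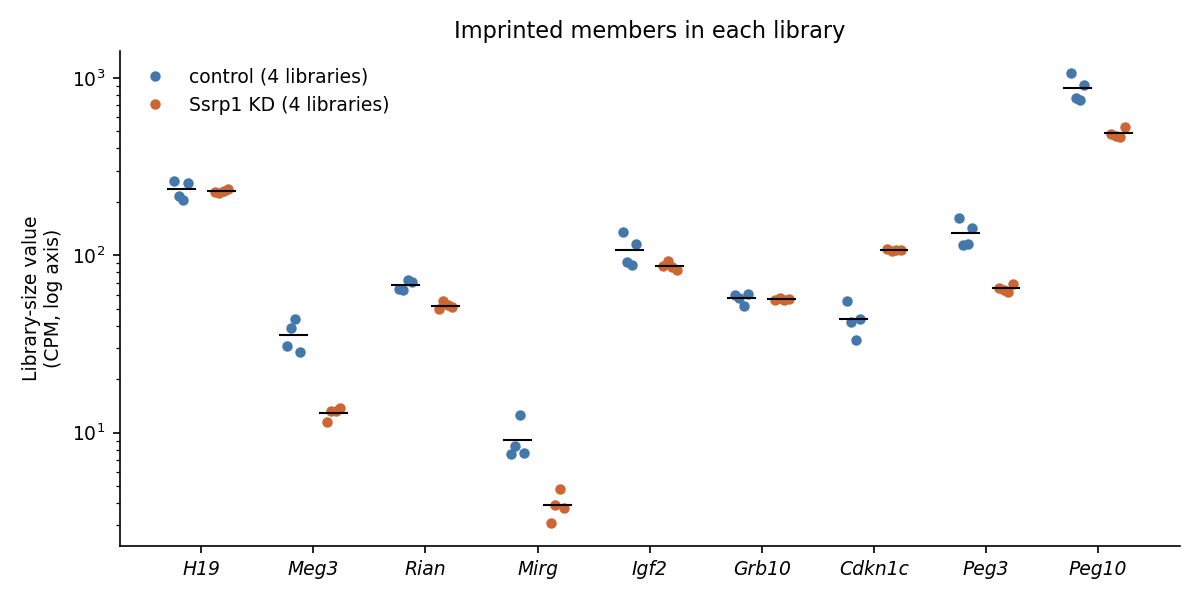
Library-size value (CPM, log axis) of each member in the 4 control and 4 *Ssrp1* KD libraries, with black lines at the means. The KD libraries lie below all control libraries for *Meg3*, *Rian*, *Mirg*, *Peg3*, and *Peg10* and above them for *Cdkn1c*, on this scale. The groups overlap for *H19*, *Igf2*, and *Grb10*.

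The non-coding RNAs of the *Dlk1*-*Dio3* domain lie in 1 orientation on chromosome 12 (mm10), *Meg3* at chr12:109540996-109571729, *Rian* at chr12:109603945-109661716, and *Mirg* at chr12:109734981-109749458. *Meg3*, a maternal long non-coding RNA, stood at 30.9, 38.9, 43.6, and 28.3 in control replicates 1 to 4 and at 11.5, 13.2, 13.3, and 13.9 in KD replicates 1 to 4. Every KD library was below every control library. The log2 fold change was -1.40 ± 0.12 (SE), a 2.73-fold lower mean (limma, adjusted p = 1.75e-11). These values rest on 207 to 243 reads per library in control and 93 to 239 in KD.

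*Rian*, the host of box C/D small nucleolar RNAs, showed the smallest change of the 3 neighbours on the library-size scale. It stood at 64.8, 63.3, 72.8, and 70.4 in control and at 49.7, 54.9, 52.7, and 50.9 in KD. The groups were apart, but the difference was small, with a log2 fold change of -0.38 ± 0.07 (SE, limma, adjusted p = 1.36e-05). It passed the adjusted p and not the fold threshold. The loess correction of the changes for exon length gave -0.13 (limma, adjusted p = 0.0728), and quantile normalisation gave -0.66.

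*Mirg*, the host of a microRNA cluster, was the scarcest member per library. Its values were 7.62, 8.43, 12.6, and 7.66 in control and 3.09, 3.93, 4.79, and 3.77 in KD, again with no overlap. Control replicate 3 was high among the controls. The log2 fold change was -1.11 ± 0.19 (SE, limma, adjusted p = 5.15e-06), on 49 to 70 reads per control library and 25 to 74 per KD library. Without control replicate 3 it was -0.95, short of the fold threshold.

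Under the spike-in scaling *Meg3* and *Mirg* remained negative, at -0.40 and -0.16, but neither was called, and *Rian* turned positive at 0.64. Set against the median of all genes on that scale, the 3 stood at -1.35, -1.11, and -0.31. After the correction for exon length, *Meg3* stood at -0.67 and was not called, and *Mirg* stood at -1.23 and was. With quantile normalisation *Mirg* stood at -0.20 (limma, adjusted p = 0.338) and *Meg3* at -1.34.

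Plain ratios within a library do not change when all its values are multiplied by 1 factor. Ratios were compared for 4 pairs of neighbours by a two-sided exact permutation test with adjustment over the 4 pairs. The ratios printed are plain, whereas the log2 ratios and their tests had 0.5 added to each value. The ratio of *Meg3* to *Rian* was 0.477, 0.614, 0.599, and 0.402 in control and 0.231, 0.240, 0.252, and 0.273 in KD. All KD ratios were below all control ratios. The log2 ratio was lower by -1.02 ± 0.15 (SE) in KD (exact permutation p = 0.0286, adjusted p = 0.0381, n = 4 against 4), where 0.0286 is the smallest p that 4 against 4 can give. The ratio of *Rian* to *Mirg* was 8.50, 7.51, 5.80, and 9.20 in control and 16.1, 13.97, 11, and 13.5 in KD. With 0.5 added the log2 difference was 0.73 ± 0.17 (exact permutation adjusted p = 0.0381). It was 0.80 with 0.1 added, 0.53 with 2 added, and 0.80 with the spike-in scaling. Quantile normalisation and the correction for exon length are not single factors and moved these ratios. The *Meg3* to *Rian* difference became -0.69 with quantile normalisation (exact permutation adjusted p = 0.0571) and -0.54 with the length correction (adjusted p = 0.0381). The *Rian* to *Mirg* difference turned to -0.45 with quantile normalisation (exact permutation adjusted p = 0.0762) and was 1.10 with the length correction (adjusted p = 0.0381). The quantile, length, and spike-in alternatives for the ratios were chosen after seeing the data.

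**Figure D2:**
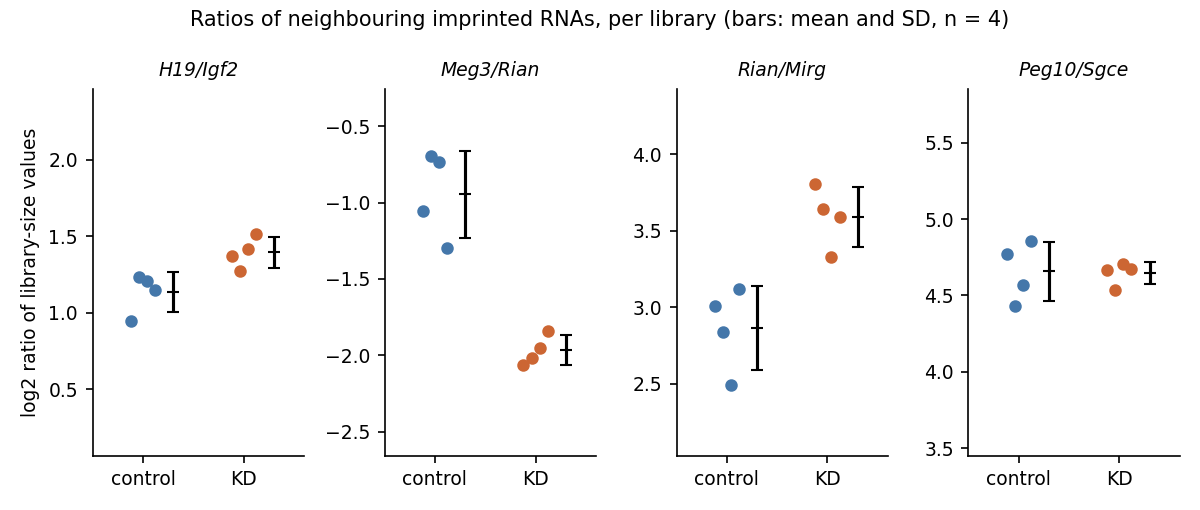
Log2 ratio of the library-size values (0.5 added to each) of neighbouring imprinted RNAs in each control and KD library, with mean and SD (n = 4) beside the points. On this scale the groups are apart for *H19*/*Igf2*, *Meg3*/*Rian*, and *Rian*/*Mirg* and overlap for *Peg10*/*Sgce*. The *Rian*/*Mirg* difference reverses with quantile normalisation (-0.45).

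*Igf2* encodes a fetal growth factor and *H19* a maternal non-coding RNA that shares its enhancers. *H19* (chr7:142575532-142578146, minus strand) stood at 261.2, 216.3, 205.2, and 256.2 in control and at 227.3, 223.8, 230.7, and 235.6 in KD. The KD values lay inside the control range, and the log2 fold change was -0.03 ± 0.07 (SE, limma, adjusted p = 0.727). With the spike-in scaling it was 1.00, next to the median of 0.95 for all genes, and with quantile normalisation it was -0.57 (limma, adjusted p = 6.32e-09).

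*Igf2* (chr7:142650768-142661035, minus strand) stood at 135.2, 91.6, 88.6, and 115.4 in control and at 87.5, 92.2, 86.1, and 82.2 in KD. The groups overlapped, and control replicates 1 and 4 were the highest. The log2 fold change of -0.29 ± 0.09 (SE) gave an adjusted p of 0.00514 in limma, but the exact permutation test of the same values gave p = 0.0857 (n = 4 against 4). Without control replicate 1 it was -0.17 (limma, adjusted p = 0.0351), and 5 of the 8 fits without 1 library did not pass 0.01. It was 0.0095 after the correction for exon length and -0.65 with quantile normalisation. The *H19* to *Igf2* ratio was 1.93, 2.36, 2.32, and 2.22 in control and 2.60, 2.43, 2.68, and 2.87 in KD. The groups were just apart, with a log2 difference of 0.26 ± 0.08 (exact permutation adjusted p = 0.0381), the smallest of the 3 ratio differences that passed. It became 0.076 with quantile normalisation and 0.12 with the correction for exon length, neither of which passed (exact permutation adjusted p = 0.514 and 0.229).

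The antisense gene *Igf2os* (chr7:142659693-142670356) overlaps 1 end of *Igf2* and runs beyond it. It shares 98 exonic bases with *Igf2* on the opposite strand. Of the annotated genes examined inside or overlapping a member, only *Igf2os* had an RNA-seq value. It was named after its values were seen. It fell from 15.0 to 16.7 in the control libraries to 4.57 to 5.45 in KD, a log2 fold change of -1.60 (limma, adjusted p = 3.21e-11). The sources used here do not give whether counting used strand, so reads in the shared bases cannot be assigned to 1 of the 2 genes.

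*Cdkn1c* encodes an inhibitor of cyclin-dependent kinases and is expressed from the maternal allele next to the paternal non-coding RNA *Kcnq1ot1*. It was the only member called higher. *Cdkn1c* (chr7:143458339-143461050, minus strand) stood at 55.4, 41.8, 33.2, and 43.5 in control and at 108.9, 105.4, 106.8, and 106.9 in KD. The KD libraries were nearly identical and all above the control libraries. The log2 fold change was 1.31 ± 0.09 (SE, limma, adjusted p = 6.99e-13), and it was called higher under each scaling tried, with 1.04 under quantile normalisation and 2.33 under the spike-in scaling.

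*Grb10*, an adaptor that dampens signalling from the insulin and IGF receptors, did not pass the test on the library-size scale. It stood at 60.0, 57.7, 51.8, and 60.6 in control and at 55.7, 57.7, 56.0, and 56.7 in KD. The KD values lay inside the control range (log2 fold change -0.02 ± 0.07, limma, adjusted p = 0.768). With the spike-in scaling its change was 0.99, close to that of *H19* and of the median gene, and it was 0.34 after the correction for exon length (limma, adjusted p = 5.32e-05) and -0.29 with quantile normalisation (adjusted p = 3.21e-04), past the adjusted p on opposite sides of 0.

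The paternally expressed *Peg3* and *Peg10* were both lower on the library-size scale. *Peg3*, a zinc finger protein gene (chr7:6705960-6730419, minus strand), stood at 161.6, 113.9, 115.5, and 142.0 in control and at 65.5, 63.5, 62.1, and 68.8 in KD, with no overlap. Its log2 fold change of -1.02 ± 0.08 (SE, limma, adjusted p = 9.65e-12) was just past the fold threshold, and leaving out control replicate 1 gave -0.92, control replicate 4 -0.98, and KD replicate 3 -0.99. The spike-in scaling gave 0.0042, and the correction for exon length gave -0.56.

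*Peg10* (chr6:4747306-4760517, plus strand) stood at 1061, 769.0, 747.5, and 906.4 in control and at 485.2, 471.6, 462.1, and 527.7 in KD, again with no overlap. The log2 fold change was -0.83 ± 0.08 (SE, limma, adjusted p = 3.40e-10), short of the fold threshold that *Peg3* passed. Quantile normalisation gave -1.58 and a call, the spike-in scaling gave 0.20, and the correction for exon length gave -0.37. *Sgce*, the gene of a membrane protein that shares the *Peg10* promoter region in the opposite orientation, stood at 38.4, 35.1, 31.0, and 30.8 in control and at 18.7, 19.8, 17.2, and 20.2 in KD. The ratio of *Peg10* to *Sgce* was 27.6, 21.9, 24.1, and 29.5 in control and 26.0, 23.8, 26.8, and 26.1 in KD, a log2 difference of -0.01 ± 0.10 (exact permutation p = 0.914). This difference moved to -0.74 with quantile normalisation (exact permutation adjusted p = 0.0571) and to 0.42 with the correction for exon length (adjusted p = 0.0381).

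Control replicates 1 and 4, the deeper control libraries, were the higher ones for *H19*, *Igf2*, *Cdkn1c*, *Grb10*, *Peg3*, and *Peg10* and the lower ones for *Meg3*. Depth differed between control and KD as well, and its part in these results was not tested.

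**Figure D3:**
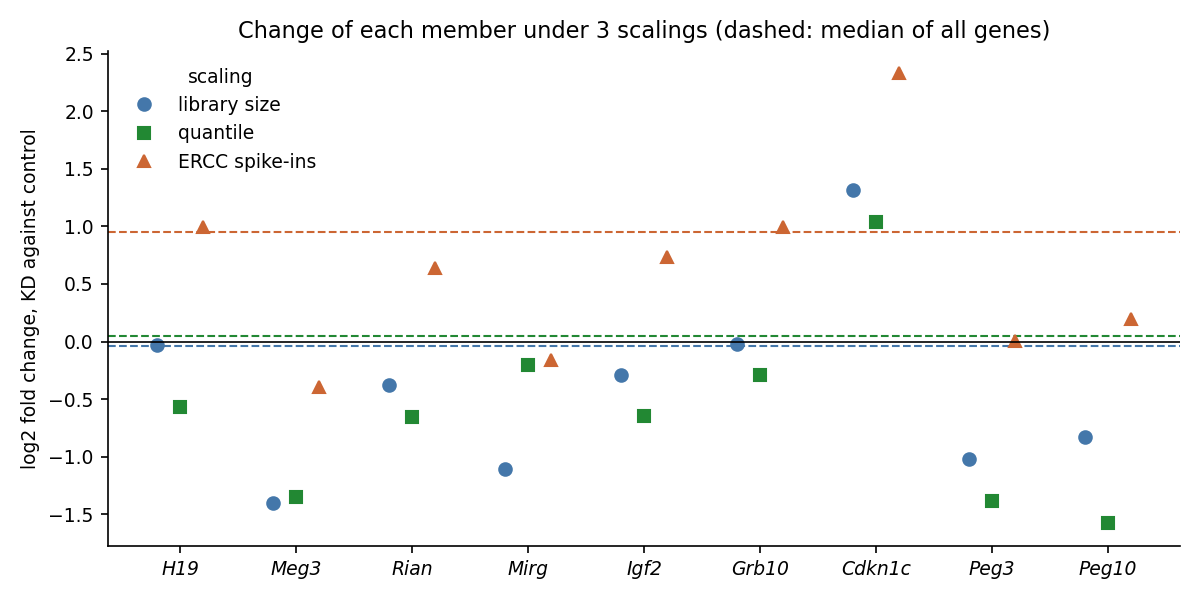
Log2 fold change of each member, KD against control, with values scaled to library size, by quantiles, or to ERCC spike-ins. Dashed lines mark the median of all genes on each scale (-0.03, 0.05, and 0.95). *Cdkn1c* lies above 0 and above the dashed line on all 3 scales and *Meg3* below both, whereas the sign of *Rian*, *Igf2*, *H19*, *Grb10*, *Peg3*, and *Peg10* turns with the spike-ins.

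*Snrpn*, which encodes a spliceosomal protein and is known for high expression in brain, was the member without an RNA-seq value. Both chromatin RNA libraries held 0 counts for it, which allows up to 0.872 and 0.884 CPM (3 counts). The annotation shares 1970 exonic bases of *Snrpn* with *Snurf*, which was also at 0, and the sources used here do not give how reads shared by 2 genes were counted. Other genes of its domain had values. *Snhg14*, the host RNA of the domain, stood at 24.2 ± 1.98 in control and 30.3 ± 1.89 in KD (SD, n = 4), *Ndn* at 14.1 ± 1.04 and 16.99 ± 1.83, *Mkrn3* at 8.07 ± 1.79 and 10.8 ± 0.637, and *Ube3a*, a ubiquitin ligase gene, at 96.9 ± 9.81 and 92.1 ± 4.45. None of these 4 was called on the library-size scale. *Mkrn3* was called higher with quantile normalisation (1.09, limma, adjusted p = 2.35e-04). With the spike-ins *Snhg14* (1.33), *Ndn* (1.25), and *Mkrn3* (1.38) were called higher, as were 48.1% of all genes, and *Ube3a* (0.95) was not. On the library-size scale *Atp10a* fell by 1.01 and *Peg12* by 1.12 in log2 units (limma, adjusted p = 2.14e-05 and 4.81e-04). Neither was called with the spike-ins (-0.05 and -0.32). With quantile normalisation neither was called, with *Atp10a* at -0.33 (limma, adjusted p = 0.162) and *Peg12* at -0.03 (adjusted p = 0.920).

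The changes in *Cdkn1c* and *Meg3* were set beside those of the other genes of their domains, from a list of 64 other imprinted genes of which 48 had a value. Of the 48, 3 were called higher (6.25%) and 13 lower (27.1%), against 8.07% and 20.6% of all genes, with a median log2 fold change of -0.17. Under the spike-in scaling the counts were 18 higher and 5 lower, against 48.1% and 7.03% of all genes. The median was 0.84 on that scale, below the 0.95 of all genes. Of the 26 that lie in the domain of a member, 3 were called higher (11.5%) and 11 lower (42.3%). The counts of lower genes depended on the processing. The 13 became 8 with quantile normalisation and 7 with the correction for exon length, and the 11 became 4 and 5. Over all 15384 genes the lower calls also went from 3163 to 1656 and 2814.

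In the *Dlk1*-*Dio3* domain the paternal protein-coding genes did not move together. *Dlk1*, which encodes a membrane-bound relative of Notch ligands, stood at 9.12, 9.81, 13.5, and 9.57 in control and at 0.865, 0.997, 0.971, and 1.39 in KD. It fell by 2.81 on the log2 scale (SE 0.21, limma, adjusted p = 1.69e-12) and was the largest fall of the domain. *Rtl1*, a retrotransposon-derived gene, fell by 1.14 (SE 0.19), a call lost with quantile normalisation (-0.23) and with the correction for exon length (-0.78). *Dio3*, the thyroid hormone deiodinase gene at the far end of the domain, went from 3.61 to 4.51 in control up to 12.96 to 13.99 in KD. Its log2 fold change was 1.62 ± 0.15 (SE, limma, adjusted p = 1.26e-10), the reverse of *Meg3*. The sign of *Dlk1*, *Rtl1*, and *Dio3* was the same under the spike-in scaling, at -1.95, -0.20, and 2.56. On that scale *Dlk1* and *Dio3* were called and *Rtl1* was not (limma, adjusted p = 0.560).

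In the *Kcnq1ot1* domain, *Cdkn1c* was not alone in its direction. *Kcnq1ot1*, the paternal non-coding RNA, stood at 280.5, 282.1, 259.6, and 273.4 in control and at 117.8, 103.4, 122.3, and 128.3 in KD. It fell by 1.22 on the log2 scale (SE 0.06, limma, adjusted p = 7.24e-16). The spike-in scaling gave -0.19, also below the median of all genes, but the correction for exon length turned *Kcnq1ot1* to 0.40 (limma, adjusted p = 1.58e-06). *Phlda2*, a maternal gene that limits placental growth, stood at 20.4, 18.1, 17.04, and 16.7 in control and at 44.4, 44.6, 41.2, and 43.9 in KD, a log2 fold change of 1.25 ± 0.09 (SE), and at 0.85 after the correction for exon length, where *Phlda2* was not called. *Nap1l4*, a histone chaperone gene, was called higher with 1.01 ± 0.05 and not with quantile normalisation (0.55), and *Tssc4* stood at 0.98 ± 0.08, short of the threshold. *Osbpl5*, an oxysterol-binding protein gene, was the largest fall of the 48, from 24.9 to 34.98 in control to 2.22 to 3.37 in KD. *Ascl2* (log2 fold change -0.95), *Slc22a18* (-0.90), and *Cd81* (-0.25) were negative and not called.

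In the remaining domains *Zim1* (-2.12), *Usp29* (-1.30), and *Zim3* (-1.11) were called lower beside *Peg3*, *Zim3* at 0.638 to 5.38 CPM in the 8 libraries. The calls of *Usp29* and *Zim3* were lost with quantile normalisation (-0.26 and -0.15) and with the correction for exon length (-0.81 and -0.90). Near *Peg10*, *Pon2* and *Pon3*, which encode paraoxonases, were both called lower at -1.40 but not with quantile normalisation (-0.94 and -0.27), and *Ppp1r9a* stood at 0.09. The neighbours of *Grb10* were, like it, not called, with *Ddc* at 0.08 and *Cobl* at 0.27. Outside the domains of members 2 genes were called, *Peg13* (-2.59) and *Plagl1* (-1.97), a zinc finger gene. *Igf2r*, the receptor that clears IGF2, stood at 295.8 ± 31.8 in control and 172.0 ± 7.14 in KD (SD, n = 4). Its log2 fold change of -0.78 (limma, adjusted p = 1.63e-11) was short of the fold threshold, so it was not called. Quantile normalisation gave -1.30 and a call, and the spike-in scaling gave 0.25 and none.

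**Figure D4:**
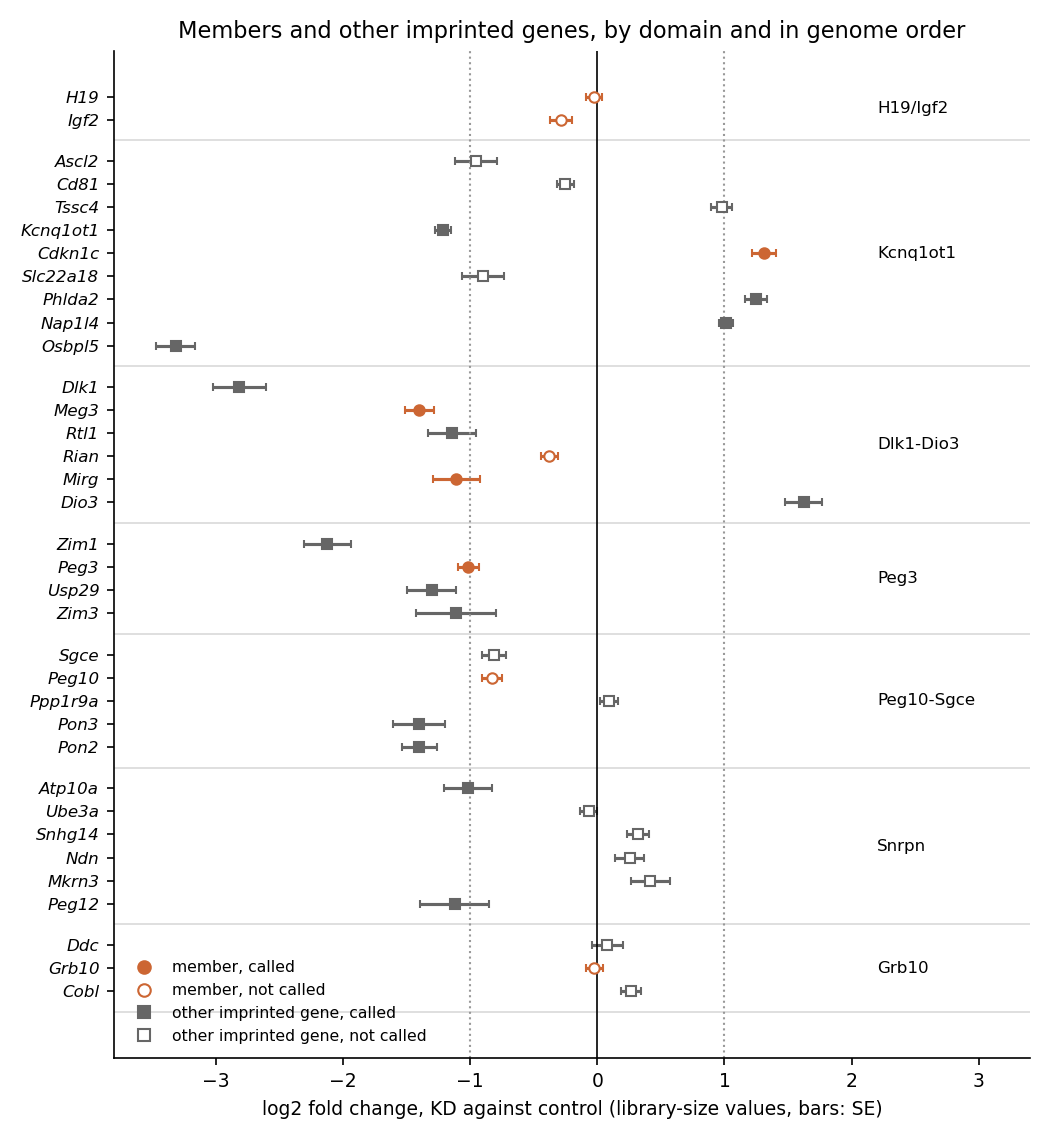
Log2 fold change (KD against control, library-size values, bars are SE from limma) of members (circles) and of other imprinted genes (squares), in genome order within each domain, with filled symbols for called genes and dotted lines at -1 and 1. *Dio3* is opposite to *Dlk1* and *Meg3*, and *Cdkn1c*, *Phlda2*, and *Nap1l4* are opposite to *Kcnq1ot1* and *Osbpl5*, although *Kcnq1ot1* turns to 0.40 with the correction for exon length. With the spike-in scaling the median of all genes lies at 0.95 and not near 0.

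A list of 20 genes linked to imprinting marks, all with values, was then examined. Not all of them keep such marks. *Dnmt3a* and *Dnmt3l* act in setting DNA methylation, and *Tet1* (log2 fold change 0.19) and *Tet2* (0.38) in removing it. On the library-size scale limma called 4 higher (20%) and 0 lower, against 8.07% and 20.6% of all genes. Of the 20, 18 had a positive value, with a median log2 fold change of 0.63. At the adjusted p alone 18 were higher and 2 lower, against 35.4% and 37.3% of all genes. An unadjusted p below 0.05 in limma gave the same 2 lower, and edgeR and DESeq2 also called 4 higher and 0 lower. *Dppa3*, which protects maternal methylation in the zygote, went from 7.62, 7.40, 7.71, and 5.33 in control to 30.5, 27.8, 30.1, and 25.2 in KD, a log2 fold change of 1.95 ± 0.13 (SE, limma, adjusted p = 9.80e-14). The other 3 called were *Dnmt3l* (1.13), a cofactor of de novo methylation, *Dnmt3a* (1.05), a de novo methyltransferase, and *Naa10* (1.01). *Zfp57* stood at 0.68, *Trim28* at 0.80, and *Dnmt1* at 0.45, none of them called, and *Zfp445* at -0.79. Each of these passed the adjusted p but not the fold threshold. This pattern depended on the scaling. With quantile normalisation the median of the list was 0.07 against 0.05 for all genes, and 11 of the 20 were positive. It called 1 in each direction, against 1518 higher and 1656 lower of all 15384 genes. The spike-in scaling called 18 of the list higher and 0 lower, against 48.1% and 7.03% of all genes.

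The genes whose profile over the 8 libraries was nearest to that of a member were found by the root-mean-square difference of centred log2 values. For *Meg3* the nearest were *Ntrk2* (0.058) and *Fam13c* (0.087). For *H19*, whose profile was nearly flat, they were *Fbxw11* (0.029), *Acbd3* (0.033), and *Cmtm4* (0.036). For *Igf2* they were *Krt8* (0.056), *Timm22* (0.074), and *Lzic* (0.074).

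In chromatin-bound RNA of E14 cells the order of the members differed from that in total RNA. The libraries held 3441643 and 3393923 counts, and small nucleolar, small nuclear, and ribosomal RNA genes took 79.4% and 75.0% of them. *Rian* had 424 counts (exact 95% Poisson interval 384.6 to 466.3) in library 1 and 523 (479.1 to 569.8) in library 2, which placed it above 99.4% of genes tested in total RNA, per kb of exon, against 74.9% in total RNA. *Peg10* had 106 and 123 counts and was high in both fractions, above 93.9% in chromatin and 97.0% in total RNA. *Meg3* ranked above 14.9% of genes in total RNA and above 67.2% in chromatin, with 22 counts (13.8 to 33.3) in library 1 and 90 (72.4 to 110.6) in library 2. The *Meg3* intervals did not overlap, so its level differed between the libraries beyond counting error. The same held for *Rian*, for *Mirg*, with 5 and 24 counts, and for *Grb10*, with 21 and 46. The intervals cover counting error only.

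*H19* and *Igf2* were the reverse. *H19*, above 95.8% of genes in total RNA, had 4 and 2 counts in chromatin RNA, and *Igf2* had 2 and 2. Both were near the limit of 3 counts. *Cdkn1c* had 2 and 6 counts and *Peg3* 8 and 17. The median rank of the 9 members was 67.2% over both libraries, 49.7% in library 1 alone, and 73.5% in library 2 alone. The total RNA is from transfected control cells and the labels name no transfection for the chromatin cells, so fraction and treatment cannot be told apart.

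**Figure D5:**
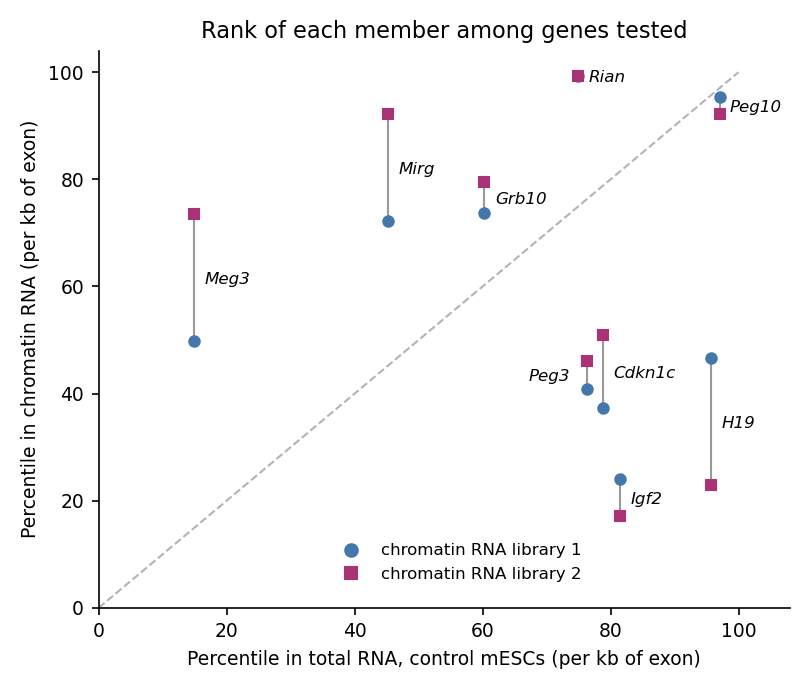
Percentile of each member among the 15384 genes of the RNA-seq table, per kb of exon, in total RNA of control mESCs (x axis) and in chromatin RNA libraries 1 and 2 (y axis), with a dashed line where both are equal. *Meg3*, *Rian*, *Mirg*, and *Grb10* lie above the line in both libraries, and *H19*, *Igf2*, *Cdkn1c*, and *Peg3* below it. *Peg10* lies slightly below the line in both (95.4 and 92.1 against 97.0).

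The small nucleolar RNA genes in the introns of *Rian* held more chromatin reads than its exons. The 7 small nucleolar RNA genes annotated inside *Rian*, which share 0 exonic bases with it, had 7923 counts together in library 1 and 9091 in library 2. The highest was DQ267102 (chr12:109656345-109656415) with 3650 and 4419 counts, followed by AF357355 with 2076 and 2292. All 7 had counts in both libraries, down to DQ267101 with 36 and 27. Inside *Mirg* 10 microRNA genes had 80 and 74 counts together, of which Mir541 took 59 and 54. The microRNA genes inside *H19* and *Meg3* were at 0 in both libraries, and counts over a microRNA gene do not measure its mature products. Those inside *H19* and *Meg3* lie wholly in exons of their hosts, whereas Mir541 shares 0 exonic bases with *Mirg*. How reads shared by 2 genes were counted is not given, so these zeros cannot be read as absence.

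The mature microRNAs of Mir541, the one with the most counts, of Mir675 inside *H19* and Mir770 inside *Meg3*, both at 0, and the only pair that shares a seed are given below from RefSeq (GRCm38.p6), 5′ to 3′, with the seed (bases 2 to 8) in capitals. All 16 microRNA genes inside members had mature sequences in the table, 30 in all.
miR-541-5p: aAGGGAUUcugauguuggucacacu
miR-541-3p: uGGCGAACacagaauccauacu
miR-675-5p: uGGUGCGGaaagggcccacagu
miR-675-3p: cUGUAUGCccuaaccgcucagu
miR-770-5p: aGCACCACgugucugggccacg
miR-770-3p: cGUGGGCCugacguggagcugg
miR-496a-5p: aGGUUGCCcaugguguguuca
miR-453: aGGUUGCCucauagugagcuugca
The seed shared by miR-496a-5p and miR-453 is GGUUGCC, and both lie inside *Mirg*. Mir496a had 3 and 2 counts and Mir453 had 0 and 0.

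FACT peaks were assigned to 4 members. In the authors' assignment to the nearest gene, 3 of the 10 members had a SSRP1 peak (*Peg3*, *Cdkn1c*, *Snrpn*), against 23.9% of all 27179 genes, and 3 had a SUPT16 peak (*Grb10*, *Cdkn1c*, *Snrpn*), against 11.4%. *H19*, *Igf2*, *Meg3*, *Rian*, *Mirg*, and *Peg10* had none of either subunit. Of 62 other imprinted genes in the annotation, 15 had a SSRP1 peak and 14 a SUPT16 peak. The lists hold no heights and were called on both replicates together, so the spread between replicates is unknown.

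*Cdkn1c* was the member with a peak of both subunits at its start. The SSRP1 peak (chr7:143460535-143460926) was centred 315 bp inside the gene from the nearest RefSeq start and covered 256 exonic bases. The SUPT16 peak (chr7:143461221-143461570) was centred 336 bp upstream of its nearest start, and 295 bp separated the 2. The middle 210 bases of the SUPT16 peak (chr7:143461291-143461500, minus strand) are shown with CpGs in capitals. They hold 28 CpGs, more than 85.7% of equal windows at the 3855 SUPT16 peaks, whose median was 12.
Cdkn1c: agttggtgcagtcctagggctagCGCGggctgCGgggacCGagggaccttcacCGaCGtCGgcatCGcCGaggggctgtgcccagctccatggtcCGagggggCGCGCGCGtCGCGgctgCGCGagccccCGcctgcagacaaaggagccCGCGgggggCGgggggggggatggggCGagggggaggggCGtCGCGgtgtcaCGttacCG

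The SSRP1 peak at *Peg3* lay in an intron, centred 2229 bp inside the gene from the start in the table. Its centre was 1707 bp upstream of the nearest RefSeq start of *Peg3*. The SUPT16 peak at *Grb10* lay in an intron 1936 bp downstream of the nearest of its RefSeq starts and 11385 bp from the first. The control region of *Peg3* is known to hold sites of the factor YY1, and that of *Grb10* lies at its downstream promoters. The middle 300 bases of the *Peg3* peak (chr7:6728041-6728340) and the whole *Grb10* peak (chr11:12025931-12026140), both on the minus strand, were searched on both strands for the YY1 core GCCATNTT and the ZFP57 hexamer TGCCGC, which do not overlap each other here, and matches are in capitals.
Peg3: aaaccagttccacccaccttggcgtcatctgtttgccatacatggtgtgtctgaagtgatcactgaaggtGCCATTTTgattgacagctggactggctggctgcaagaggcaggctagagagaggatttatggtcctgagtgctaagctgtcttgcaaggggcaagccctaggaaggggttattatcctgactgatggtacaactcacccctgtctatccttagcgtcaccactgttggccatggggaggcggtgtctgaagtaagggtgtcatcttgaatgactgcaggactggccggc
Grb10: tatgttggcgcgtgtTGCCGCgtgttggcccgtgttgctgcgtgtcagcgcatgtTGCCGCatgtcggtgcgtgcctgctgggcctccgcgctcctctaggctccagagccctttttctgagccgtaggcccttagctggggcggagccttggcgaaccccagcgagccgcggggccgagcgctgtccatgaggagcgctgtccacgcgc
The *Peg3* window held 1 match of the YY1 core, which 7.24% of equal windows at SSRP1 peaks held. The *Grb10* window held 2 matches of the ZFP57 hexamer, which 15.2% of equal windows at SUPT16 peaks held at least once, and 23 CpGs.

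The peaks assigned to *Snrpn* were not near its start. The overlapping pair (SSRP1 chr7:60973935-60974522, SUPT16 chr7:60974061-60974480, 420 bp shared) lay 524051 bp upstream of the outermost RefSeq start by its SSRP1 centre, and the other SSRP1 peak lay 98886 bp inside it. With a peak counted only over the gene body of the table or 1000 bp before its start, 2 members had a SSRP1 peak and 2 a SUPT16 peak.

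The cells expressed the markers of mESCs in both groups, and the marker lists differed between the groups. All 12 pluripotency markers with a value were higher in KD and 8 were called (66.7%), on the library-size scale. On that scale 8.07% of all genes were called higher and 20.6% lower. Their summed value was 1891 to 2030 in control and 5247 to 5732 in KD. *Pou5f1* stood at 286.2 ± 17.8 and 673.1 ± 10.5 and *Nanog* at 131.1 ± 3.99 and 272.5 ± 10.9 (SD, n = 4). Quantile normalisation gave 11 positive and 2 called. Markers of primitive endoderm (6 of 8 with a value) summed to 65.9 to 95.6 in control and 27.3 to 32.0 in KD, with *Gata4* (9.17 and 2.85) and *Gata6* (24.5 and 6.24) called lower. Those of trophectoderm (7 of 8) summed to 961.5 to 1295 and 739.5 to 786.3, with *Cdx2* (4.99 and 1.38) called lower and *Eomes* (13.6 and 8.93) not called. Fibroblast markers (6 of 8) summed to 80.4 to 99.4 and 33.0 to 36.1, with *Col1a1* (22.5 and 3.41) and *Col1a2* (13.5 and 2.83) called lower. Mesoderm markers (3 of 7, without *T* or *Mixl1*) summed to 17.8 to 29.8 and 3.22 to 5.18, and neural markers (6 of 8) to 99.1 to 120.1 and 147.6 to 159.7, with *Pax6* (7.89 and 2.48) called lower and *Nes* (42.8 and 33.2) not. Of the 6 neural markers 5 were negative, and *Tubb3* (33.6 and 108.3), named after its values were seen, was called higher. The lower calls of the other lists also depended on the scaling. For primitive endoderm, trophectoderm, mesoderm, neural, and fibroblast markers they were 4, 3, 3, 3, and 4 on the library-size scale. With quantile normalisation they were 2, 2, 1, 1, and 3, and with the spike-ins 1, 0, 1, 0, and 3. Over all 15384 genes the lower calls were 3163, 1656, and 1082 on these 3 scales. Fewer cells of a type and less RNA per cell cannot be told apart in these bulk libraries. The part of these marker changes in the changes of the members was not tested.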

How the data were processed

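RNA-seq was measured in 4 control and 4 KD libraries. The authors aligned reads with STAR to mm10, counted genes with featureCounts, kept genes above 1 CPM, and deposited a signal per library scaled to library size and a signal scaled to spike-ins. Chromatin RNA is deposited by the authors as a raw count per gene for 2 libraries. For the peak lists the authors used Bowtie2, PePr on both replicates of a subunit, and ChIP-Enrich. The authors' tables of their own comparisons (fold changes and p-values of KD against control, NPCs against mESCs, and exon usage) were not used, and MNase-seq, ATAC-seq, NET-seq, and NPCs were not analysed here. The sources used here do not give whether counting used strand.

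The tests used log2(library-size value + 0.5) in limma 3.58.1 (trend, R 4.3.3) over 15384 genes, and exact permutation tests in scipy 1.17.1. Whole reads were recovered from the steps between values (100% within 0.1 read), and edgeR 4.0.16 and DESeq2 1.42.0 were run on them as alternatives. In simulated KD against control counts of 15384 genes, all 200 genes changed 4-fold were recovered by each tool with 0 false calls. Replicates were compared for duplication (chi-square per degree of freedom 1.88 to 6.62). The replicates are described as biological in the methods. Genes were named by rule: all members, listed imprinted genes in a member's domain, up to 5 called rises and 5 called falls of a list outside those, the first 2 markers of each list, and the 3 nearest profiles of *Meg3*, *H19*, and *Igf2*. *Igf2r*, *Zfp57*, *Trim28*, *Dnmt1*, *Zfp445*, *Tet1*, *Tet2*, *Igf2os*, and *Tubb3* are outside this rule and were named with their values known. One gene that this rule names is not reported here. The members and lists were chosen with earlier results of these data known. Sequences are from RefSeq (GRCm38.p6), the assembly that mm10 names.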

Additional observations from a re-analysis of the deposited data

Results flagged for a closer look

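The library-size value of *Mirg* in control replicate 3 was 12.6 CPM, against 7.62 to 8.43 in the other control libraries. It stood apart from the other 3 by more than Dixon's test allows at the 95% level for 4 values. It was the only such case among 26 groups of 4 values tested (9 members and 4 ratios, in each condition), and chance alone flags about 1 group in 20. The value rests on 70 reads.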

How the results depend on the processing

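Over all genes, 1242 were called higher and 3163 lower. The adjusted p alone gave 5447 and 5745, the spike-in scaling 7394 and 1082, quantile normalisation 1656 lower, and a mean value of at least 5 2024 lower. Leaving out 1 library gave 1210 to 1316 higher and 3044 to 3331 lower. Among the members, 1 was called higher under every alternative run. The 3 called lower became 0 with spike-ins, 1 with a pseudocount of 2, 1 with the loess correction for exon length, 6 with the adjusted p alone, and 2 to 3 without 1 library.

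With spike-ins *H19* (1.00), *Igf2* (0.73), *Rian* (0.64), *Peg3* (0.0042), *Peg10* (0.20), and *Grb10* (0.99) turned positive. With the loess correction *H19* (0.13), *Igf2* (0.0095), and *Grb10* (0.34) did. *Grb10* stood at 8.5e-05 with DESeq2. Leaving out 1 library gave -0.088 to 0.028 for *H19* and -0.071 to 0.0032 for *Grb10*, neither called.

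Leaving out 1 library gave ratio differences of 0.20 to 0.30 for *H19* to *Igf2*, -1.14 to -0.94 for *Meg3* to *Rian*, 0.60 to 0.82 for *Rian* to *Mirg*, and, with a change of sign, -0.087 to 0.054 for *Peg10* to *Sgce*. Of the settings added after seeing the data, quantile normalisation gave 0.076, -0.69, and -0.45 for the first 3 and the length correction 0.12 for *H19* to *Igf2*. For *Peg10* to *Sgce* spike-ins gave 0.0057 and the length correction 0.42. With 3 against 4 the smallest exact p is 0.0571, so none could pass. The same holds for the sign-flip test with a replicate block, whose smallest p is 0.125: it gave 0.26, -1.02, and 0.73 with an adjusted p of 0.167. Same-numbered libraries did not deviate together (r -0.057 to 0.018 across genes), so the numbers do not pair them. The limma fit with the block called 1242 genes higher and 3163 lower and changed no call of a member.

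With peaks of at least 500 bp 1 member had a SSRP1 peak and 0 a SUPT16 peak. The members' median rank in chromatin RNA was 49.7% in library 1 alone. Counts under about 10 in chromatin RNA limit *H19*, *Igf2*, *Cdkn1c*, *Mirg*, and *Peg3*. The cause of these changes with the processing was not tested.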
